A study of Rattus norvegicus with 8 samples.

Results

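The MRuc probes are a class of long noncoding RNA probes on a rat expression array, built as rat counterparts of noncoding transcripts that the UCSC gene set lists for mouse. They were chosen by name alone, as noncontrol probes whose systematic name begins with MRuc, and number 685 of the 24684 noncontrol probes. Each of the 685 is printed as 3 spots, 2055 spots in all. Long noncoding RNAs are transcripts that do not encode a protein. Many are spliced and polyadenylated like messenger RNAs, some act in the nucleus on chromatin or on nearby genes, and most have no known function. They tend to be less abundant and more restricted to a tissue or cell type than coding transcripts. No function is stated here for any single MRuc transcript, and their sequences and genome positions were not analysed here. The MRuc name is kept throughout because no gene symbol was matched to it.

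The samples are skin in its full thickness, from male rats of the outbred Sprague-Dawley stock. In the STZ group, 4-week-old rats were injected intraperitoneally with 60 mg/kg of streptozotocin (STZ), which kills pancreatic beta cells, the source of insulin, and in the sham group rats of the same age were given sodium citrate solution. Skin was taken 4 weeks later, at 8 weeks of age, from rats of 250 to 300 g. The labels mention a skin wound, but do not settle whether the profiled skin was wounded, nor whether an array holds the RNA of 1 rat or of several. No blood glucose is given in the sources used here, so the STZ group is defined by the injection alone. The RNA of each sample was labelled with Cy3 and hybridised to a 1-colour Agilent array, 4 samples per group by the labels.

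The 4 samples of a group were readings of 2 arrays. Over 813 bright spots of MRuc probes, the deviation of each spot from its probe's mean correlated at 0.961 to 0.995 within 4 pairs of samples, which were replicates 1 and 3 and replicates 2 and 4 of either group. Between any other samples the correlation did not exceed 0.796. Such deviations carry the print and hybridisation pattern of a single array, and the file headers give each pair 1 array position and 2 scans. The log2 signals of 457 MRuc probes differed with an SD of 0.0784 to 0.143 within these pairs and of 0.862 to 1.08 between other samples of a group. The readings were averaged, so each group has n = 2 arrays in every comparison below. Replicates 1 and 3 are called array A of their group and replicates 2 and 4 array B. The limma p-values rest on the spread between these arrays. Each probe's variance was drawn toward a value pooled over all tested probes (prior df 3.006, residual df 2). An exact permutation test of 2 against 2 arrays cannot go below 0.33.

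STZ array B stood apart from the other arrays. The 75th percentile of its spot intensities was 606 and 624 in its 2 readings, against 1481 and 1496 on STZ array A and 1138 to 1336 on the sham arrays. A level below is the log2 processed signal minus that percentile, so a level of 0 is the signal of the array's 75th percentile. The dimmest probe above background lay at a level of -7.56 on sham A, -7.45 on sham B, -7.57 on STZ A and -6.32 on STZ B, so the low end of the scale sat higher on STZ B. The 86 MRuc probes that were above background in no reading had a median level of -9.04 to -8.94 in the sham readings, -8.82 and -8.80 on STZ A and -7.29 and -7.19 on STZ B. Values without STZ B are given beside the results that it moves most.

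Markers of several cell types differed between the groups in the same RNA. Keratinocyte markers were above background in all 8 readings for the 3 of 9 that were matched to a probe (Krt14, Krt1 and Ivl). All 8 matched hair follicle markers of 10 listed were lower in STZ (median change -6.16 on the log2 scale), and their summed level was 9.31 and 9.30 on the sham arrays, 6.53 on STZ A and 2.36 on STZ B. All 4 erythroid markers were lower (median -4.75). The 4 matched neutrophil markers of 5 listed (median 4.17), all 5 T and NK cell markers (median 3.09) and all 6 macrophage markers (median 2.20) were higher. The other 8 lists had median changes from -1.28 to 0.79. Among them all 5 matched adipocyte markers were lower, with Cidec at -4.46, Adipoq at -3.04 and Lep at -0.16. Before the median of all probes was taken off, Lep was not lower. All 4 Schwann cell and all 4 mast cell markers were also lower. All 5 matched fibroblast markers and the 2 matched melanocyte markers were higher. An unadjusted p under 0.05 (limma) was reached by 2 adipocyte, 1 Schwann cell, 0 mast cell, 1 fibroblast and 0 melanocyte markers. On STZ A, Col1a2 (7.21) and Tyr (-4.16) lay below both sham arrays. Keratinocyte, endothelium and skeletal muscle markers went both ways. In whole skin, fewer cells of a type and less RNA per cell cannot be told apart, and the part that these differences have in the MRuc values was not tested.

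More MRuc probes were above background on the STZ arrays than on the sham arrays, and most of the excess was on 1 array. A probe counted as above background on an array when most of its spots were flagged well above background by the scanner software in both readings. By this rule 491 of 685 MRuc probes (71.7%) were detected on sham A, 493 (72.0%) on sham B, 526 (76.8%) on STZ A and 561 (81.9%) on STZ B. The groups did not overlap, and the mean share was 7.52 percentage points higher in STZ (exact permutation test, two-sided, p = 0.33, the smallest it allows). Of all probes, 83.1% were detected on sham A, 82.0% on sham B, 85.7% on STZ A and 91.6% on STZ B, where the groups did not overlap either. On all 4 arrays 457 MRuc probes (66.7%) were detected, and 86 (12.6%) were above background in none of the 8 readings.

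The share of MRuc probes detected was below that of coding probes on each array. Of all probes, 78.7% were above background on all 4 arrays and 4.89% in no reading, and of the 15323 coding probes 84.0% and 2.58%. Among the other noncoding classes, the MRAK probes, named for mouse cDNA records, reached 71.9% on all arrays, the RefSeq noncoding probes 73.5% and the uc. probes, named for ultraconserved regions, 46.1%. The share of MRuc probes thus lay above that of the uc. probes and below those of the coding, MRAK and RefSeq noncoding probes. The remaining probes, which fall in none of these classes, reached 75.05%. These shares describe the probes of this array design and were not tested. Coding probes are mostly printed once and uc. probes always once, whereas each MRuc probe has 3 spots.

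**Figure D1:**
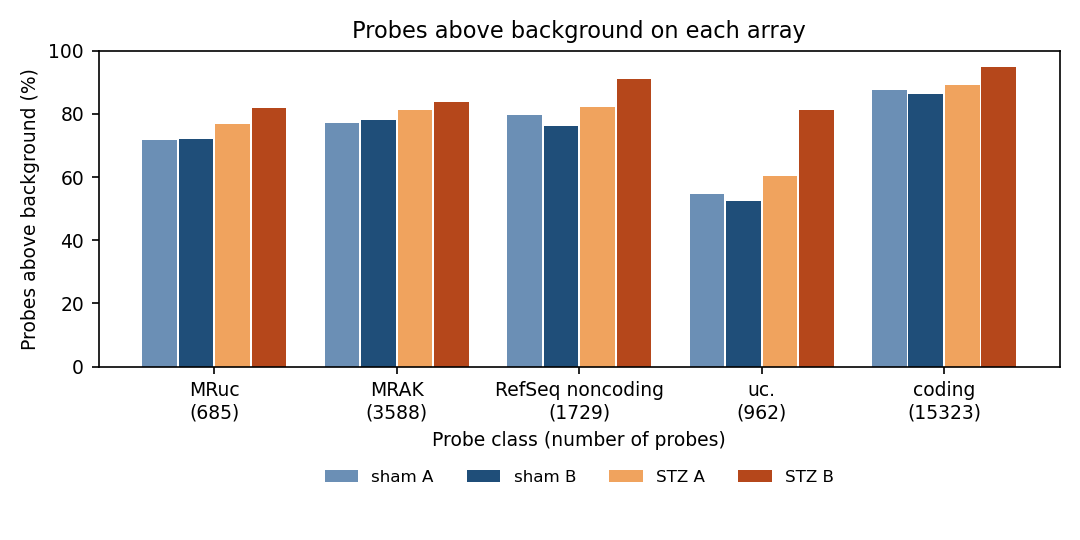
Share of probes above background (y axis, percent) on each of the 4 arrays (bars, coloured by array) for the MRuc probes and 4 other probe classes (x axis, with the number of probes). The MRuc bars run from 71.7% on sham A to 81.9% on STZ B, below the coding bars on each array, and STZ B is the highest bar in each class.

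Detection on STZ B alone was about as frequent among MRuc probes as among all probes. STZ B alone detected 34 MRuc probes (4.96%) that no other array detected, whereas each of the other 3 arrays alone detected 2. Over all probes STZ B alone detected 1178 (4.77%).

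In signal, the MRuc probes spread over a wide range with most of them dim. Their sham mean levels ran from -9.20 to 6.39. Their median level was -4.91 on sham A, -4.64 on sham B, -4.66 on STZ A and -3.76 on STZ B, where the first 3 arrays lay close together and STZ B lay above them. The STZ median was 0.57 higher on average (exact permutation test, two-sided, p = 0.667). The median of all probes was -2.80 on sham A, -2.56 on sham B, -2.61 on STZ A and -2.18 on STZ B, where it was also highest. In sham, 79 MRuc probes (11.5%) lay above the 75th percentile of the array, against 30.5% of all probes and 40.2% of coding probes. Signals of different probes depend on probe sequence as well as RNA amount, so they rank no transcript against another.

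The 8 MRuc probes with the highest sham signal were bright on all 4 arrays, and 6 of them overlapped between the groups or differed by less than 0.5. MRuc007hrz gave levels of 6.57 and 6.21 in sham and 6.31 and 6.62 in STZ, with processed intensities of 110300 on sham A, 97740 on sham B, 118500 on STZ A and 60540 on STZ B. The values of the groups overlapped. MRuc007tcw gave 5.75 and 5.0 in sham and 5.23 and 5.13 in STZ, and MRuc007gex 5.20 and 5.46 against 5.18 and 5.40. Both overlapped between the groups.

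MRuc007ngn was the least even of these bright probes within a group. Its levels were 4.50 and 3.28 in sham and 3.54 and 5.35 in STZ, so that arrays of 1 treatment lay further apart than the group means (change 0.32, SE 0.80). MRuc009bey gave 3.69 and 3.96 in sham and 3.70 and 3.19 in STZ. MRuc009frc gave 3.14 and 3.13 in sham and 3.54 and 3.45 in STZ, with both STZ arrays above both sham arrays by less than 0.5 (change 0.14, SE 0.41).

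The other two were lower on both STZ arrays. MRuc007hyr gave 3.75 and 3.40 in sham against 3.02 and 2.74 in STZ (change -0.93, SE 0.44). MRuc009umb gave 2.90 and 3.51 in sham against 2.02 and 1.24 in STZ, a change of -1.81 (SE 0.52), and is taken up again below.

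No MRuc probe passed the test of STZ against sham after adjustment. Changes were tested over the 537 MRuc probes (78.4%) that were above background in at least 4 of the 8 readings, within 1 limma fit over 21526 probes with Benjamini-Hochberg adjustment. The other 148 were not tested. A probe above background in all readings of 1 group and none of the other passes this filter too, through the group where it is brighter. Such MRuc probes were 13 brighter in STZ, among them MRuc009riw and MRuc009bcl, and 1 brighter in sham, MRuc007nca. Their p-values are not independent of the filter. At an adjusted p under 0.05, 0 of 537 were called, as were 0% of all tested probes. The smallest adjusted p was 0.154 among MRuc probes and 0.0757 among all probes. A change below is the STZ mean minus the sham mean on the log2 scale, after the median over all 21526 probes, itself 0.23 higher in STZ, was taken off. The p-values belong to the change before that step.

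At an unadjusted p under 0.05, 26 MRuc probes were higher in STZ (4.84% of 537) where 7.3% of all tested probes were. At the same threshold 8 were lower (1.49%) where 3.52% of all were. Both shares of MRuc probes were below those of all probes in this fit, but the share higher in STZ was above that of all probes when STZ A was left out. With a change of 1 or more and arrays that did not overlap, 67 MRuc probes were higher (12.5%) against 13.4% of all probes, and 23 were lower (4.28%) against 7.83%. Of the 26 higher at the unadjusted threshold 13 were above background in all 8 readings, and of the 8 lower 7 were. With only such probes fitted, 20 were higher (4.38%, all probes 6.46%) and 10 lower (2.19%, all probes 4.16%) at that threshold. The balance depended on the scaling, since quantile normalization between arrays gave 14 higher (2.61%, all probes 5.73%) and 18 lower (3.35%, all probes 5.34%) at the unadjusted threshold. Without STZ A, 177 MRuc probes were higher (33%, all probes 25%) and 13 lower (2.42%, all probes 5.08%). Without STZ B, 16 were higher (2.98%, all probes 5.78%) and 9 lower (1.68%, all probes 3.53%). Leaving out sham A gave 9 higher (1.68%, all probes 4.79%) and 5 lower (0.931%, all probes 1.7%). Leaving out sham B gave 11 higher (2.05%, all probes 3.15%) and 4 lower (0.745%, all probes 1.42%).

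The changes of the MRuc probes were centred near those of all probes and were less spread. Of 537 changes 309 were above the median of all probes and 228 below, with a median of 0.18, where all probes have 0 by construction. The median was 0.14 for MRAK, 0.17 for RefSeq noncoding, 0.54 for uc. and -0.11 for coding probes. From the 5th to the 95th percentile the MRuc changes ran from -1.08 to 1.51, and those of all probes from -1.36 to 1.94. A change of at least 2 either way was found for 20 MRuc probes (3.72%) against 6.93% of all probes. The median SE was 0.58 for MRuc probes and 0.53 for all, so changes within about 1 were not resolved at this number of arrays. Without STZ B the MRuc median was 0.01, and after quantile normalization -0.08, where its sign turned.

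Dim MRuc probes were shifted up and bright ones down, as were all probes of the same signal. Split by mean level into 3 ranges of 179 MRuc probes each, the dimmest (levels -7.15 to -4.69) had a median change of 0.71, and the 4380 probes of all classes in that range had 0.79. The middle range had a median of 0.23 and all probes there 0.24. The brightest range (levels -2.39 to 6.43) had -0.33 and all probes there -0.30. In each range the MRuc median lay within 0.1 of that of all probes.

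The trend with signal was steeper on STZ B and flatter under the other scaling. Without STZ B the MRuc medians of the ranges were 0.18, 0.01 and -0.15 from dim to bright, and without STZ A they were 1.24, 0.47 and -0.45. After quantile normalization they were 0.02, -0.05 and -0.12. Of the 26 probes that were higher at the unadjusted threshold, 15 were in the dimmest range, 6 in the middle and 5 in the brightest. These are 8.38%, 3.35% and 2.79% of the MRuc probes in each range, where 12.1%, 7.57% and 5.34% of all probes in the same ranges were called higher. The dimmest range was also the least precise, with a median SD of 0.27 between the spots of a probe against 0.0882 in the brightest range.

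**Figure D2:**
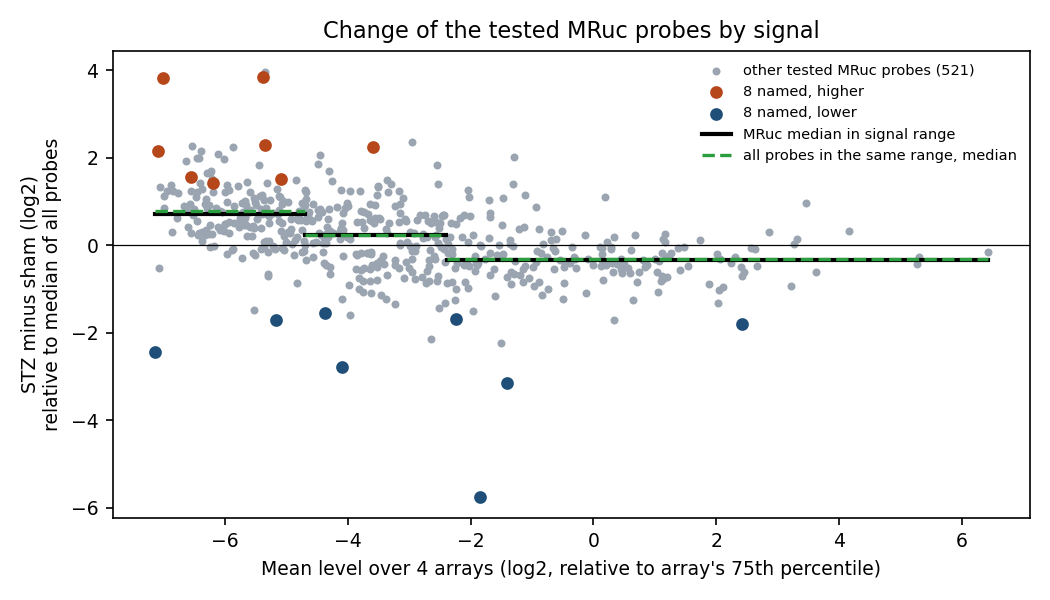
STZ minus sham change of each of the 537 tested MRuc probes (y axis, log2, relative to the median over all probes) against its mean level over the 4 arrays (x axis, log2). Black lines are the MRuc medians of the 3 signal ranges (0.71, 0.23 and -0.33) and green dashed lines the medians of all probes in the same ranges (0.79, 0.24 and -0.30). The 16 named probes lie away from both, as they were chosen for their difference.

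The STZ arrays differed from each other in many MRuc probes. Set against the sham mean, 183 MRuc probes were higher by 1 or more on STZ B and not on STZ A, 4 on STZ A and not on STZ B, and 22 on both. In the other direction 39 were lower by 1 or more on STZ B alone, 22 on STZ A alone and 18 on both. Only 2 probes moved by 1 or more in opposite directions. The SD of these differences over the 537 probes was 0.75 on STZ A and 1.31 on STZ B. The median SD between arrays of a group was 0.32 in sham and 0.66 in STZ, while the 2 readings of an array differed by a median of 0.0367. These counts and SDs were not made over all probes. Among probes detected in all readings, 34% of those of all classes and 41.8% of MRuc probes differed by 1 or more between the STZ arrays. Without STZ A, the dimmest signal range had a median change of 1.41 over all probes and 1.24 over MRuc probes.

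**Figure D3:**
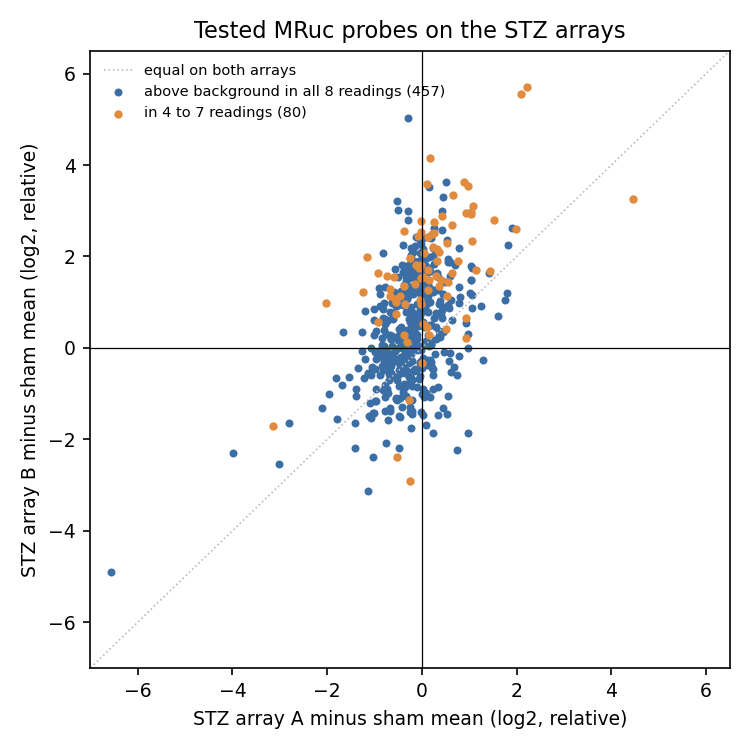
Difference from the sham mean of each of the 537 tested MRuc probes on STZ array A (x axis) and STZ array B (y axis), both log2 and relative to the median change of all probes, with probes coloured by the number of readings above background. The cloud is taller than wide (SD 1.31 on STZ B and 0.75 on STZ A), and the few probes near the dotted line of equality far from 0 are those lower or higher on both STZ arrays.

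The members named for their difference were chosen by smallest p among those whose arrays do not overlap, so that they do not overlap is no result. Among the members lower in STZ, 3 stood furthest out and were detected in every reading. MRuc009qcd had a processed intensity of 1127 on sham A, 4811 on sham B, 34.8 on STZ A and 45.3 on STZ B. Its levels were -0.04 and 1.87 in sham and -5.43 and -3.77 in STZ. Both sham arrays lay far above both STZ arrays, and the sham arrays also differed from each other by 1.91. The change was -5.74 (SE 0.90, unadjusted p = 0.00166, limma adjusted p = 0.154), larger than that of any other tested MRuc probe in either direction. It was -6.37 without STZ B and -5.07 without STZ A.

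MRuc007eoj had intensities of 158 and 196 in sham and of 30.7 and 17.7 in STZ. Its levels were -2.87 and -2.75 against -5.60 and -5.13, with the arrays of each group close together. The change was -2.78 (SE 0.44, unadjusted p = 0.00213, limma adjusted p = 0.164). It was -2.83 without STZ B, but -1.19 after normexp background correction, where the unadjusted p was no longer under 0.05, and -1.46 after normexp with quantile normalization.

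MRuc009oex had intensities of 1140 and 1448 in sham and of 115 and 152 in STZ. Its levels were -0.02 and 0.14 in sham and -3.70 and -2.02 in STZ, so the sham arrays were close together and the STZ arrays further apart. The change was -3.14 (SE 0.67, unadjusted p = 0.00752, limma adjusted p = 0.231). The SD between its 3 spots was 0.0397.

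The other 5 named for a lower signal in STZ had changes between -2.42 and -1.54. MRuc008zom gave levels of -1.66 and -1.36 in sham and -3.07 and -2.84 in STZ (change -1.68, SE 0.43). MRuc009umb, one of the brightest members, had the change of -1.81 given above, which was -1.22 without STZ B. MRuc009nlv gave -4.10 and -4.77 in sham and -6.31 and -5.52 in STZ (change -1.71, SE 0.53). MRuc008xkb gave -4.11 and -3.31 in sham and -4.90 and -5.14 in STZ (change -1.54, SE 0.49). These 4 were also chosen for groups that do not overlap, and their adjusted p was between 0.33 and 0.44 (limma). After normexp background correction the change was -0.30 for MRuc009nlv and -0.48 for MRuc008xkb, and neither then had an unadjusted p under 0.05 (limma). MRuc008xkb also lost it when probes were not filtered on detection, and when the 75th percentile was taken over probes instead of spots. With the replicate number as a block in the fit, none of these 4 kept an unadjusted p under 0.05 (limma).

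MRuc007nca was detected in all 4 sham readings and in no STZ reading. Its levels were -6.66 and -5.43 in sham, and its STZ signal gives only a bound. Against the dimmest detected signal of each STZ array, its sham signal was at least 1.87-fold higher. Its measured change of -2.42 (SE 0.73) went to -0.0024 after normexp background correction.

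Of the members higher in STZ, MRuc007cud was the only one of the 3 with the smallest p that was detected in every reading. Its intensities were 51.3 and 36.5 in sham and 226 and 156 in STZ. Its levels were -4.50 and -5.18 in sham and -2.72 and -1.98 in STZ, where both STZ arrays lay above both sham arrays. The change was 2.26 (SE 0.52, unadjusted p = 0.00494, limma adjusted p = 0.202). It was 2.09 without STZ B and 2.47 without STZ A, and 1.35 after normexp background correction, and the SD between its spots was 0.0841.

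MRuc007dak had the smallest p of the members higher in STZ. Its intensities were 11.3 and 5.58 in sham, near background, and 222 and 41.2 in STZ. Its levels were -6.69 and -8.16 in sham and -2.75 and -3.95 in STZ, and it was above background in both readings of sham A, in neither of sham B and in all STZ readings. Its sham B level is below the dimmest detected signal of that array, so the change is a measured difference and not an exact size. The change was 3.85 (SE 0.73, unadjusted p = 0.0025, limma adjusted p = 0.172), 4.65 without STZ B and 3.09 without STZ A. It was 1.52 after normexp background correction and 1.03 after normexp with quantile normalization.

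MRuc009ktl gave levels of -6.21 and -6.99 in sham and -4.39 and -3.77 in STZ (change 2.29, SE 0.52, limma adjusted p = 0.201). Its spots differed with an SD of 0.94, because 1 of the 3 spots read -7.25 on STZ A where the other two read -3.96 and -3.84. MRuc008jtw had a change of 1.57 (SE 0.44), with a spot SD of 1.35. Both were above background on sham A and in no reading of sham B, and both values rest on uneven spots.

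MRuc008jpk was detected in all readings, at -5.50 and -6.43 in sham and -4.32 and -4.10 in STZ (change 1.53, SE 0.51). MRuc008hcg was detected in 7 of 8 readings, at -6.98 and -7.06 in sham and -5.65 and -5.09 in STZ (change 1.42, SE 0.45). After quantile normalization these changes were smaller, 0.90 for MRuc008jpk and 0.46 for MRuc008hcg. Over all 8 named for a higher signal in STZ, the changes ran from 0.51 to 1.52 after normexp background correction. With quantile normalization added to normexp they ran from 0.07 to 1.19. After quantile normalization alone MRuc008jtw, MRuc008hcg, MRuc009bcl and MRuc008jpk no longer had an unadjusted p under 0.05 (limma).

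**Figure D4:**
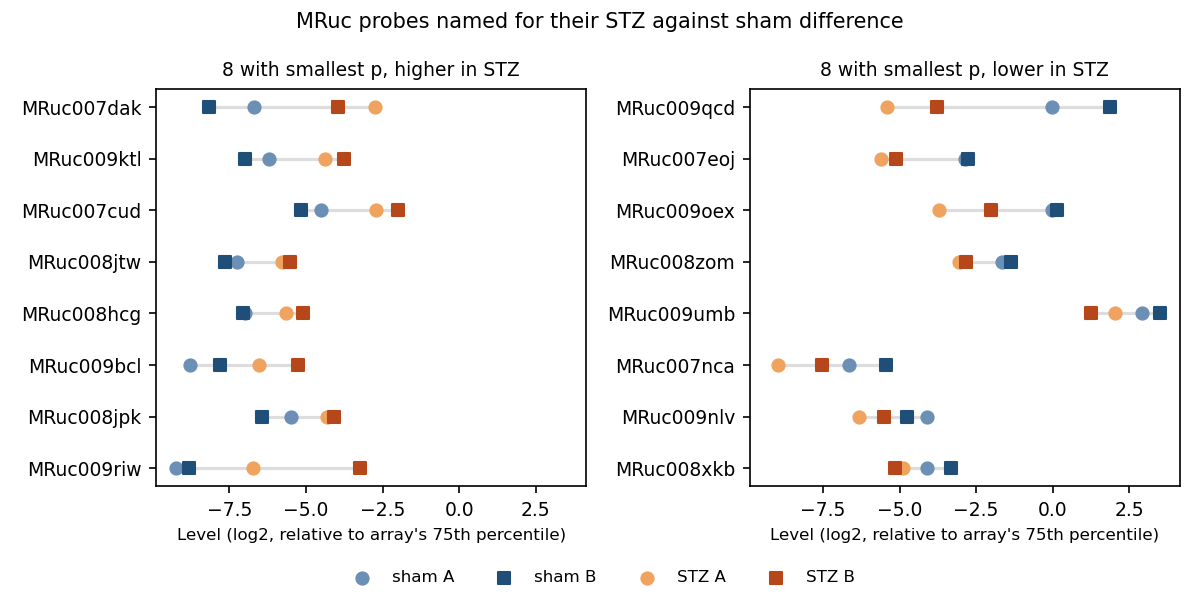
Levels (x axis, log2 relative to the array's 75th percentile) of the 8 MRuc probes with the smallest p higher in STZ (left) and lower in STZ (right), with 1 marker per array (blue for sham, orange for STZ, circles for array A, squares for array B). The 16 probes were chosen for arrays that do not overlap, so the separation of sham and STZ markers in each row follows from that choice. MRuc009qcd shows the widest gap, from 1.87 on sham B to -5.43 on STZ A.

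The rest of the 26 were 18 probes with changes from 0.88 to 3.96, of which 11 were above background in all 8 readings. Among these is MRuc008ukm, named here after its values were seen, which was above background on sham A and in no reading of sham B. Its levels were -6.31 and -8.56 in sham and -4.98 and -1.51 in STZ, and the arrays of each group lay more than 2 apart. Its measured change of 3.96 (SE 1.37) was 2.42 without STZ B and 1.36 after normexp background correction, and with sham B below background it gives no exact size. Of the 14 MRuc probes with a change of 2 or more, 4 were above background in all 8 readings, and of the 6 with a change of -2 or less, 5 were.

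In 13 MRuc probes the signal was above background in all STZ readings and in no sham reading, and in 1, MRuc007nca, the other way round. The 13 are 1.9% of the MRuc probes, where 1.43% of all probes had that pattern. The reverse pattern of MRuc007nca was found in 24 of all 24684 probes. In all 13 the level was higher on STZ B than on STZ A. For 9 of them the sham value is a bound, and the STZ signal was at least 1.98-fold to at least 5.71-fold higher. Without STZ B, a comparison added after seeing the data, these bounds were 1.02-fold to 2.24-fold. Bounds are on the scale of the 75th percentile, before the median of all probes is taken off, so they can exceed the changes given beside them. They rest on the dimmest detected signal of each array, which is not a strict detection limit. MRuc009sno, for example, lay above it on sham A, at -6.74, without being detected. The words "at least" are therefore meant against that signal, or the probe's own where higher.

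The order of these probes depended on STZ B. MRuc009riw had the largest bound with both STZ arrays and not without STZ B. Its levels were -9.25 and -8.83 on the sham arrays, below background, and -6.73 and -3.25 on the STZ arrays, where the STZ arrays lay far apart. Its STZ signal was at least 5.71-fold higher than the dimmest detected sham signal (measured change 3.82, SE 1.18, limma adjusted p = 0.326), and at least 1.71-fold without STZ B (measured change 2.28). MRuc008lpy gave -7.17 on STZ A and -3.21 on STZ B and was at least 4.8-fold higher, but at least 1.22-fold without STZ B, where its measured change went from 2.16 to 0.38. MRuc009ipj (-6.32 and -4.37 in STZ) was at least 4.41-fold higher, and at least 2.24-fold without STZ B. MRuc007myz (-6.58 and -4.0) was at least 4.10-fold higher, and at least 1.68-fold without STZ B. MRuc009bcl (-6.54 and -5.26) was at least 3.04-fold higher, and at least 1.95-fold without STZ B. MRuc008ggl gave -7.30 and -7.25 in sham, not well above background but above the dimmest detected signal, and -5.96 and -3.95 in STZ (change 2.09, SE 0.76, and 1.28 without STZ B).

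Near 0, 236 MRuc probes (43.9%) changed by less than 0.5 either way, where 44.3% of all probes did. Those nearest to 0 with all readings above background and an SE under the median were MRuc009gpm (-0.01, SE 0.52), MRuc009iiz (0.01, SE 0.51), MRuc009kcw (-0.02, SE 0.47) and MRuc009pqy (-0.02, SE 0.42). MRuc009pqy was also the most even, at -3.08 and -3.10 in sham and -3.01 and -2.76 in STZ. With SEs of this size, these values do not resolve a change of about 1 either way.

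Some MRuc probes differed strongly between arrays of 1 treatment. Of the 457 detected in all readings, 78 (17.1%) differed by 1 or more between the sham arrays and 191 (41.8%) between the STZ arrays, and of all such probes 16.5% and 34% did. In the STZ group 159 of the 191 were higher on STZ B. The members named in this and the next paragraph for gaps between arrays were chosen after their values were seen, except MRuc008pue. MRuc008bys gave -1.70 on sham A and 1.91 on sham B with even spots (SD 0.0312), and 0.51 and -0.73 in STZ, so both STZ arrays lay between the sham arrays. MRuc009jdo gave -4.33 on STZ A and 1.0 on STZ B, the widest gap between STZ arrays among these 457, and -3.32 and -5.18 in sham.

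MRuc008pue and MRuc007guc divided the arrays into A and B and not into sham and STZ. MRuc008pue gave 0.66 on sham A, -2.23 on sham B, 0.19 on STZ A and -2.80 on STZ B, with a spot SD of 0.0496. MRuc007guc gave 1.82, -1.20, 1.51 and -1.33 in the same order. In both, the gap between arrays A and B was near 3 in each group, while the STZ changes were -0.74 (SE 1.38) and -0.44 (SE 1.37).

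In 3 groups of MRuc probes with shared identifiers, the values differed between the members of a group. UCSC identifiers that share all but the last letter are close in the numbering, though whether they lie in 1 locus was not analysed here, and 269 MRuc probes fell into 122 such groups of 2 or more. In the group MRuc008pu, MRuc008pud was even across the arrays (2.38 and 2.26 in sham, 2.28 and 2.28 in STZ) and MRuc008pug nearly so (-0.67 and -0.91 against -0.80 and -0.01), whereas MRuc008pue divided as above and MRuc008puh was above background in no reading.

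The 3 members of MRuc007nw likewise differed. MRuc007nwi (-5.13 and -4.82 in sham, -4.34 and -4.02 in STZ) and MRuc007nws (-4.42 and -4.79, then -3.88 and -2.94) were higher on both STZ arrays, with changes of 0.57 (SE 0.44) and 0.97 (SE 0.52). MRuc007nww gave 3.34 and 0.88 in sham and 2.20 and 1.86 in STZ, with both STZ arrays between the sham arrays (change -0.30, SE 0.89). In MRuc007yw, the changes were 0.23 for MRuc007ywi, -0.99 for MRuc007ywp, -0.18 for MRuc007yww and 0.50 for MRuc007ywz, with SEs of 0.49 to 0.71. Of the 21 pairs of directly consecutive identifiers, 12 had both probes tested and 9 of these had changes of the same sign. Over those 12 pairs the changes correlated at -0.12 (Pearson, a description across pairs measured on the same arrays).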

How the data were processed

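The deposited intensity of each spot is the processed signal of the scanner software, Feature Extraction (the file headers give version 11.0.1.1 and the submitters' processing notes 11.0.0.1), background-subtracted and, as far as the sources used here record, not normalized between arrays. Deposited median spot and local background intensities served 1 alternative, and the flags per spot are other values, 0 or 1, per the file headers. Here, log2 signals minus each reading's 75th percentile over 42136 noncontrol spots were averaged per probe without outlier spots, and then over the 2 readings of an array. No spot of an MRuc probe was saturated. Probes above background in at least 4 of 8 readings were fitted with lmFit and eBayes (limma 3.58.1, R 4.3.3), two-sided, n = 2 arrays per group. Where a group was below background, a bound took, per array, the higher of the dimmest detected signal and the probe's own. The fitting step alone was tested on simulated data, in which each probe had the same spread on all arrays.

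Named probes were the 8 with the highest sham signal, the 8 each way with the smallest unadjusted p and arrays that do not overlap, up to 6 detected in 1 group only, the 4 with the smallest change and 3 groups of shared identifiers. Members, lists and rules were chosen with earlier results of these data known. Probe names were looked up in the RefSeq tables of GRCr8, where none of the 685 matched, and the file headers name build rn4, so no coordinates are printed. A planned comparison with neighbouring coding genes was not run. With 4 arrays in all, precision is limited by their number.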

Additional observations from a re-analysis of the deposited data

How the results depend on the processing

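The counts of MRuc probes at an unadjusted p under 0.05, 26 higher and 8 lower, moved with the arrays used, the scaling, the background correction and the number of samples assumed. Leaving out 1 array in turn gave 9 to 177 higher and 4 to 13 lower, where the group of 1 array is assumed to vary like the other, and the 177 (33%, all probes 25%) came without STZ A. Quantile normalization gave 14 and 18 (2.61% and 3.35%, all probes 5.73% and 5.34%). Normexp background correction gave 8 and 5 (1.49% and 0.931%, all probes 4.3% and 2.6%), and with quantile normalization 8 and 23 (1.49% and 4.28%, all probes 5.33% and 6.29%). Normexp adds an offset of 50, which compresses dim signals by construction, and the median level became -3.26, or -3.27 with quantiles. Deviations of same-numbered arrays correlated at -0.20. With 2 arrays per group this compares a single gap per group, so it cannot decide whether the replicate numbers pair the arrays. A replicate block gave 28 and 5 (5.21% and 0.931%, all probes 7.28% and 2.74%). Crossed pairs, added after seeing the data, gave 35 and 10 (6.52% and 1.86%, all probes 9.68% and 3.54%). The 8 readings as separate samples gave 145 and 56 (27% and 10.4%, all probes 24.7% and 15.4%), the array as a random block 52 and 35 (9.68% and 6.52%, all probes 12.9% and 10.2%), and the scan as a block 108 and 42 (20.1% and 7.82%, all probes 20.6% and 13.4%). In these 3 fits 101, 25 and 65 MRuc probes (18.8%, 4.66% and 12.1%) had a limma adjusted p under 0.05, as had 24.3%, 8.55% and 16.4% of all probes, and in the other settings run no MRuc probe had. All arrays are on 1 slide, so it could not be a block. With the percentile over probes, also added later, the median level was -5.20. The median change ran from 0.01 to 0.40 when an array was left out, and the number detected on all arrays from 457 to 584 over its alternatives. Among the 16 probes named for their difference, which were chosen for a small p, MRuc007cud, MRuc009qcd and MRuc009oex had an unadjusted p under 0.05 in 15 of 15 alternatives that did not take rescans as samples, and the other 13 lost it in at least 1.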
